A study of Mus musculus with 4 samples.

Results

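The genes described here are 30 genes of the oligodendrocyte lineage, among the 55414 genes counted in each library. They were taken from a list of gene symbols, not from measured values, and were sorted by textbook knowledge into 10 progenitor, 6 immature and 14 myelinating genes. RNA was sequenced from neural stem cells grown out of mouse E14.5 cortex as primary cultures, with EGF (20 ng/ml) and basic FGF (10 ng/ml) in the medium, first as floating spheres and then as an attached monolayer. The groups were wild type (2 libraries) and Mettl4 knockout (2 libraries). The labels give no strain, no sex, no description of the deleted part of Mettl4 and no statement of whether the 2 libraries of a group came from separate embryos, so p-values measure only the spread between these libraries.

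Oligodendrocytes are the cells that wrap axons of the brain in myelin. They arise from neural stem cells through a migrating, dividing progenitor that is driven by the transcription factors Olig2 and Sox10 and by PDGF signals through Pdgfra. Progenitors then leave the cell cycle, pass through a short-lived immature stage marked by Gpr17, switch on the regulator Myrf and make the lipids and proteins of myelin. Cortical stem cells grown with EGF and FGF are known to express Olig2 without becoming oligodendrocytes.

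The libraries held between 12812064 and 19310668 counts, with wild type replicate 1 the smallest. Mettl4 itself measured 63.7 and 66.5 CPM (counts scaled to library size, TMM) in the wild type and 15.6 and 17.5 CPM in the knockout. It was the only gene called at an adjusted p under 0.05 (edgeR quasi-likelihood test, log2 fold change -1.97, SE 0.17, adjusted p = 0.00512). Wild type replicate 1 stood apart in sex-linked RNA. The Y-linked gene Ddx3y had 626 counts there and 0 in each of the other 3 libraries, and Xist, which silences an X chromosome in females, was at 285 CPM there against 3329 CPM in wild type replicate 2 and 3468 and 3482 CPM in the knockout. The summed level of 15 neural stem cell markers was 6101 and 6395 CPM in the wild type and 6055 and 6933 CPM in the knockout, and each of the 15 had enough counts to be tested. Both knockout libraries were above both wild type libraries for 2 of them (12.5% of all genes tested) and below for 5 (14.9%). Sox9, a glial and stem cell factor, had the smallest p of the 15 (log2 fold change 0.46, SE 0.14, edgeR unadjusted p = 0.00898, adjusted p = 1).

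The progenitor genes Olig1, Olig2 and Sox8 were abundant in every library, and myelin genes Mbp, Mog, Mobp and Mag had few or 0 counts. Per kilobase of exon, the progenitor factors Olig1 (388 CPM per kb, mean of the 4 libraries), Olig2 (189 CPM per kb) and Sox8 (50.6 CPM per kb) were the 3 highest of the 30 genes. The next was Cnp, an enzyme abundant in myelin that other cells also express, at 18.5 CPM per kb. Sox10, which drives the lineage forward, was at 0.622 CPM per kb, and Gpr17 at 1.25 CPM per kb. The structural myelin genes Mbp (myelin basic protein), Mog and Mobp lay below Sox10, at 0.118, 0.145 and 0.0185 CPM per kb. The stages overlapped in level. The progenitor genes Pdgfra and Matn4 were at 2.74 and 0.0205 CPM per kb, and the myelin gene Cldn11 at 2.06. Mag, an adhesion molecule of myelin, had 0 counts in all 4 libraries, which allows a level of up to 0.0447 CPM over their summed depth, for counting error only. Within the myelinating genes, Cnp was followed by Sirt2, a deacetylase, at 6.66 and Enpp2, the secreted enzyme autotaxin, at 4.44 CPM per kb. Ugt8a came next at 2.50 CPM per kb.

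**Figure D1:**
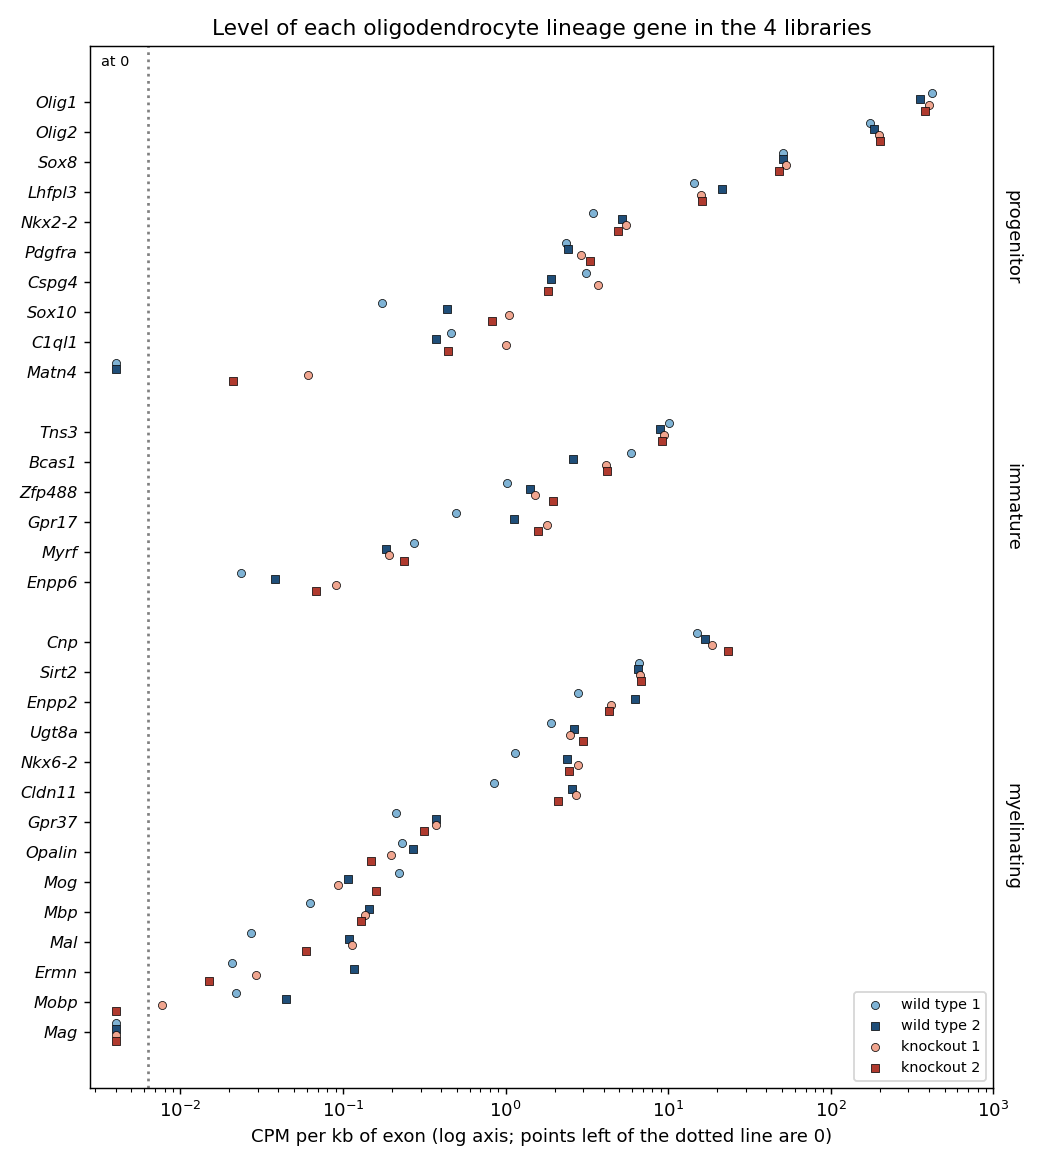
Level of each of the 30 genes in each library, as CPM per kilobase of exon on a log axis, sorted by level within each stage; circles are replicate 1 and squares replicate 2 of wild type (blue) and knockout (red). Olig1, Olig2 and Sox8 lie furthest right, Mag is at 0 in all 4 libraries, and wild type replicate 1 (pale blue circles) is the lowest point for Sox10, Gpr17, Cldn11, Nkx6-2 and Enpp2.

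Of the 30 genes, 23 had enough counts for the test, 9 progenitor, 5 immature and 9 myelinating. A gene can pass this filter through the group where it is high, so counts over the tested genes describe them and test nothing. None was called: 0 of 23 had an adjusted p under 0.05 by edgeR, where 0.00502% of all genes tested were called, and 0 were called by DESeq2 or limma-voom. At an unadjusted p under 0.05 there were 3 by edgeR (Sox10, Gpr17 and Cnp), 2 by DESeq2 and 3 by limma-voom. Which genes passed this edgeR threshold changed when either wild type library was left out. The share of all genes at this threshold was worked out for the main edgeR fit only. All 3 of the edgeR genes were higher in the knockout, a share to set beside 1.15% of all genes tested. Both knockout libraries lay above both wild type libraries for 8 of the 23 genes (12.5% of all genes tested) and below them for 1, Opalin (14.9% of all genes tested). The median log2 fold change, knockout minus wild type, was 0.22 over the 23 genes and -0.0013 over all 19912 genes tested, and 16 of the 23 were positive against 9897 of 19912. In bulk RNA, more cells of a type and more RNA per cell cannot be told apart.

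**Figure D2:**
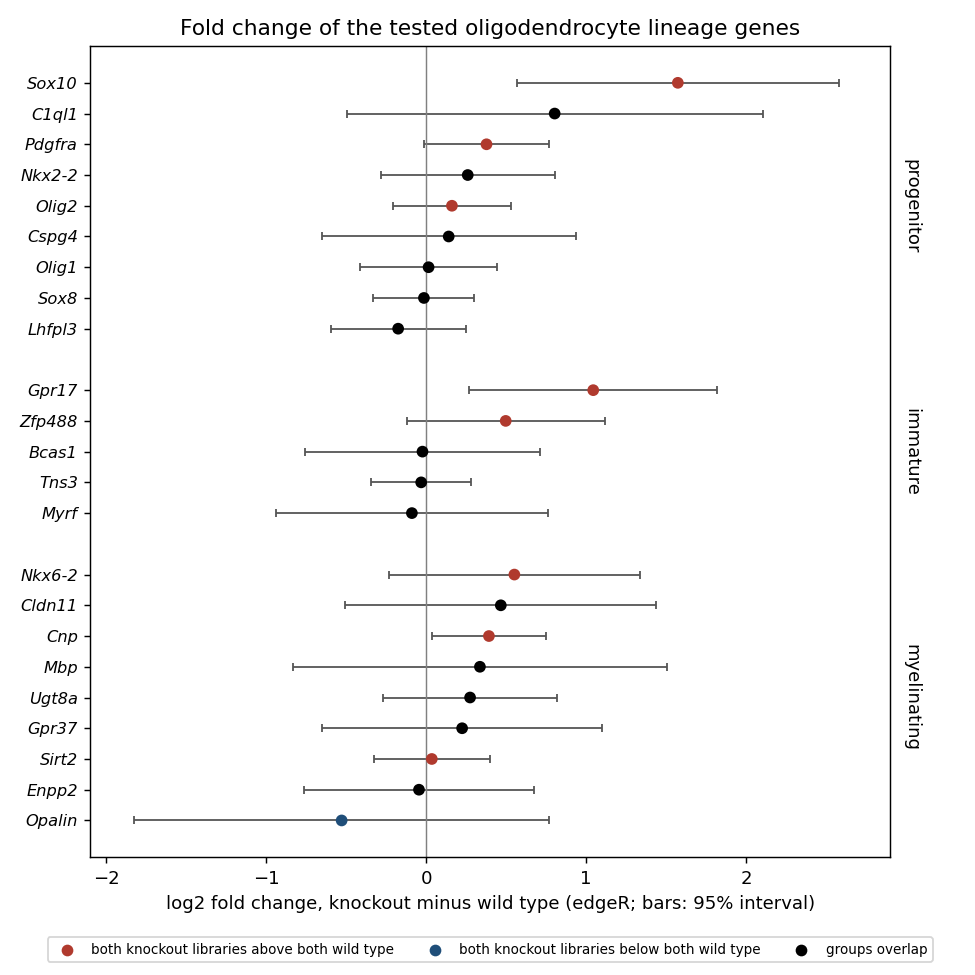
Log2 fold change of the 23 tested genes, knockout minus wild type, with 95% intervals from edgeR, by stage; red points mark genes whose 2 knockout libraries both lie above both wild type libraries, blue the reverse, black an overlap. The intervals of Sox10 (0.57 to 2.58), Gpr17 (0.27 to 1.82) and Cnp (0.036 to 0.75) lie above 0 before adjustment, and the other 20 include 0.

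The promoters of Zfp488, Nkx6-2 and Cnp are shown, as those of the tested genes with the smallest p that have a single RefSeq entry whose start lies in a GENCODE transcript. All 3 genes had both knockout libraries above both wild type libraries (12.5% of all genes tested). A choice by smallest p favours genes whose groups stand apart, so this describes the choice and tests nothing. RefSeq promoter sequences matched 22 of the 30 genes, in build GRCm38.p6, while the counts were made on GRCm39. Each is the 250 bases before the start of the gene, read along its own strand. Capitals mark the E-box CANNTG, the core that basic helix-loop-helix factors such as Olig1 and Olig2 bind, and the Sox cores ACAAT and ACAAAG, searched on both strands. Zfp488 lies at chr14:33978765-33979014 (minus strand), Nkx6-2 at chr7:139582798-139583047 (minus strand) and Cnp at chr11:100574689-100574938 (plus strand).
Zfp488: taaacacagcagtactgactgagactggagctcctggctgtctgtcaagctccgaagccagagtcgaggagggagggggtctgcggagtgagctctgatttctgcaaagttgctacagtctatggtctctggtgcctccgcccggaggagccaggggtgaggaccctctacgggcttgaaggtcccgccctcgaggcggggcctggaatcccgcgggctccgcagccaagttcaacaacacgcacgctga
Nkx6-2: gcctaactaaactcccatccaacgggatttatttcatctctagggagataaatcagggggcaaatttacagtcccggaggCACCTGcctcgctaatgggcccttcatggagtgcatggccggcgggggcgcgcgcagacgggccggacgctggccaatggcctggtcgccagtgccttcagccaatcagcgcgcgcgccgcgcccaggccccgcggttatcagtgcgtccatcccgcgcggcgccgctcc
Cnp: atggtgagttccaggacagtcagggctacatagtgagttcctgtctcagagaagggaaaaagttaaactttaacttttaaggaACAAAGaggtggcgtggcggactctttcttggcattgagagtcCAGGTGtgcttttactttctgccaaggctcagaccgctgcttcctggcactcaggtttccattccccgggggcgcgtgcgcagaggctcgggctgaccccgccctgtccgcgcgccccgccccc
Cnp held 1 E-box and 1 Sox core, Nkx6-2 held 1 E-box, and Zfp488 held neither in this window. Over the 22 promoters, 54.5% held an E-box against 66% of 27025 promoters of all genes, 31.8% held ACAAT against 28.3%, 18.2% held ACAAAG against 16.5%, and 50% held either Sox core against 39.4%. The last letters of ACAAT can be the first of an E-box, so that these matches can overlap. No test was made of these shares, and a match is a run of letters, not a measured binding site.

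Among progenitor transcription factors, the abundant Olig1, Olig2 and Sox8 had log2 fold changes between -0.01 and 0.16, and the rare Sox10 had one of 1.57. Olig1, a basic helix-loop-helix factor of the lineage, measured 910 and 759 CPM in wild type replicates 1 and 2, against 863 and 823 CPM in knockout replicates 1 and 2. Both knockout values lay between the wild type values (log2 fold change 0.01, SE 0.19, 95% interval -0.41 to 0.44). Olig2, its partner and the factor that specifies the lineage, measured 439 and 466 CPM in the wild type and 503 and 508 CPM in the knockout. The groups did not overlap, but the log2 fold change of 0.16 was smaller than its SE of 0.17. Sox8, a relative of Sox10, measured 159 and 158 CPM against 164 and 150 CPM, with the wild type values inside the knockout ones.

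Sox10 had the largest difference of the 23 genes. It measured 0.527 and 1.34 CPM in wild type replicates 1 and 2, from 7 and 22 counts, against 3.21 and 2.51 CPM in knockout replicates 1 and 2, from 61 and 46 counts. Both knockout libraries were above both wild type libraries, and wild type replicate 1 was the lowest. The means were 0.933 ± 0.574 and 2.86 ± 0.495 CPM (SD, n = 2 each), a log2 fold change of 1.57 with an SE of 0.45 (edgeR unadjusted p = 0.00574, adjusted p = 1). Against wild type replicate 2 alone the log2 fold change was 1.09, and against wild type replicate 1 alone it was 2.44, in fits that assume the lone library to vary like the others. Nkx2-2, a homeodomain factor of the same lineage, measured 9.94 and 15.0 CPM in the wild type and 15.9 and 14.1 CPM in the knockout. Only wild type replicate 1 was low, and without it the log2 fold change of 0.26 (SE 0.25, adjusted p = 1) became -0.0030.

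Pdgfra, the receptor through which PDGF drives progenitor division, was higher in both knockout libraries. It measured 23.6 and 24.2 CPM in the wild type and 29.1 and 32.9 CPM in the knockout. Its wild type libraries were close together, unlike those of Sox10. The means were 23.9 ± 0.412 and 31.0 ± 2.66 CPM (SD, n = 2 each), a log2 fold change of 0.38 (SE 0.18, 95% interval -0.015 to 0.77, edgeR unadjusted p = 0.058, adjusted p = 1). It stayed between 0.29 and 0.46 when any 1 library was left out. For its ligand genes the log2 fold change was 0.07 (Pdgfa, SE 0.24) and -0.02 (Pdgfc, SE 0.24), while Pdgfb, Pdgfd and the receptor gene Pdgfrb were under the low-count filter. Cspg4, the NG2 proteoglycan of progenitors, which pericytes also carry, did not follow Pdgfra. It measured 37.2 and 22.6 CPM in the wild type and 44.0 and 21.7 CPM in the knockout, so that replicate 1 was the higher in both groups.

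The other progenitor genes were mixed. Lhfpl3, a membrane protein gene enriched in progenitors, measured 46.6 and 68.9 CPM in the wild type and 50.8 and 51.5 CPM in the knockout, with both knockout values inside the wild type range. C1ql1, a secreted C1q-like protein gene, had 9 and 9 counts in the wild type, against 28 and 12 in the knockout. Only knockout replicate 1 stood out (log2 fold change 0.80, SE 0.59, edgeR adjusted p = 1), and without it the log2 fold change was 0.11. Matn4, a matrix protein gene, was under the filter with 0 and 0 counts in the wild type, against 6 and 2 in the knockout. Per total counts, the 8 knockout counts were 2.11-fold a floor of 3 counts in the wild type group. That ratio holds no error on the 8 counts and no spread between libraries, so it is not a lower bound. Over the 9 tested progenitor genes, 7 were positive and 2 negative (median log2 fold change 0.16).

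Of the immature stage genes, Gpr17 and Zfp488 were higher in both knockout libraries and the other 3 tested genes were not. Gpr17, a receptor that marks and holds the immature stage, measured 2.56 and 5.84 CPM in the wild type and 9.32 and 8.25 CPM in the knockout. The groups did not overlap, and wild type replicate 1 was again the lowest library. The means were 4.20 ± 2.32 and 8.79 ± 0.759 CPM (SD, n = 2 each), a log2 fold change of 1.04 (SE 0.35, edgeR unadjusted p = 0.0133, adjusted p = 1). Gpr17 passed the threshold over all genes when wild type replicate 2 was left out (log2 fold change 1.79, edgeR adjusted p = 0.0269), and its log2 fold change was 0.59 when wild type replicate 1 was left out. Zfp488, a transcriptional repressor that promotes oligodendrocyte formation, measured 4.37 and 6.09 CPM in the wild type and 6.48 and 8.36 CPM in the knockout. All knockout values were above the wild type ones, by a log2 fold change of 0.50 (SE 0.28, edgeR unadjusted p = 0.104, adjusted p = 1). It was 0.28 without wild type replicate 1 and 0.77 without wild type replicate 2.

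Tns3, a focal adhesion protein gene, was the most abundant immature gene per kilobase with 113 and 99.4 CPM in the wild type and 105 and 102 CPM in the knockout (log2 fold change -0.03, SE 0.14). Myrf, the factor that switches on myelin genes, was rare, with 31 and 26 counts in the wild type, against 31 and 37 in the knockout. Its log2 fold change was -0.09 (SE 0.38, 95% interval -0.94 to 0.76), too wide an interval to place it. Bcas1, a marker of newly forming myelin sheaths, measured 22.4 and 9.86 CPM in the wild type, with both knockout libraries in between at 15.7 and 15.8 CPM. Enpp6, a choline phosphodiesterase of new oligodendrocytes, was under the filter with 2 and 4 counts in the wild type, against 11 and 8 in the knockout. Over the 5 tested immature genes 2 log2 fold changes were above 0 and 3 below (median -0.02). The median hid opposite wild type libraries: the 5 genes were all higher in each knockout library than in wild type replicate 2, but 2 of 5 were higher than in wild type replicate 1.

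Among myelinating genes, Cnp was the one with an edgeR unadjusted p under 0.05. Its unadjusted p was 0.0452 by limma-voom and 0.0606 by DESeq2. It measured 54.7 and 61.6 CPM in the wild type and 67.9 and 84.7 CPM in the knockout. The groups did not overlap, and knockout replicate 2 was the highest. The means were 58.1 ± 4.88 and 76.3 ± 11.9 CPM (SD, n = 2 each), a log2 fold change of 0.39 (SE 0.16, edgeR unadjusted p = 0.034, adjusted p = 1). Leaving out 1 library gave values from 0.22 (without knockout replicate 2) to 0.54 (without knockout replicate 1). Of the printed promoters, that of Cnp was the one with both an E-box and a Sox core. The promoters of Nkx2-2, Tns3, Mag and Opalin, not printed, also held both. A link between these matches and RNA level was not tested. The homeodomain factor Nkx6-2, found in myelinating cells and also in ventral progenitors, measured 2.19 and 4.56 CPM in the wild type and 5.32 and 4.70 CPM in the knockout. The knockout values stood just above wild type replicate 2, and wild type replicate 1 was far lower (log2 fold change 0.55, SE 0.35, edgeR adjusted p = 1). Without wild type replicate 1 it was 0.13.

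Cldn11, the tight junction protein of myelin, repeated this pattern more sharply. It measured 1.58 and 4.81 CPM in wild type replicates 1 and 2, against 5.06 and 3.93 CPM in knockout replicates 1 and 2. Wild type replicate 2 lay between the knockout libraries. The log2 fold change of 0.47 (SE 0.44, edgeR adjusted p = 1) was 1.51 against wild type replicate 1 alone and -0.10 against wild type replicate 2 alone. Ugt8a, which makes the myelin lipid galactosylceramide, measured 8.59 and 11.9 CPM in the wild type and 11.2 and 13.6 CPM in the knockout, so that the groups overlapped (log2 fold change 0.27, SE 0.25, edgeR adjusted p = 1). Without wild type replicate 1 it was 0.06. Enpp2 measured 16.0 and 36.0 CPM in the wild type, on either side of both knockout libraries at 25.6 and 25.0 CPM. Sirt2 was level at 33.4 and 32.9 CPM in the wild type and 33.5 and 34.4 CPM in the knockout (log2 fold change 0.03, SE 0.16).

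The remaining myelinating genes were near the limit of detection. Mbp had 7 and 20 counts in the wild type, against 22 and 20 in the knockout. Gpr37, a receptor of myelinating cells, had 17 and 37 counts in the wild type, against 43 and 35 in the knockout. In both, only wild type replicate 1 was low. Opalin, a membrane protein of mature oligodendrocytes, was lower per library size in both knockout libraries, with 9 and 13 counts against 11 and 8 and a log2 fold change of -0.53 with an SE of 0.58. The 5 myelinating genes under the filter were Mag, the surface protein gene Mog, Mobp, the proteolipid gene Mal and the cytoskeletal gene Ermn. Mobp had 2 and 5 counts in the wild type, against 1 and 0 in the knockout, and Ermn had 1 and 7 against 2 and 1. Mog had 5 and 3 counts against 3 and 5, and Mal had 1 and 5 against 6 and 3. These 5 genes were not tested, and counts this low do not place a difference in either direction.

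The size of the difference depended on which wild type library was used, most of all for the myelinating genes. For the 9 tested myelinating genes the median log2 difference in CPM was 0.67 for knockout replicate 1 and 0.64 for knockout replicate 2 against wild type replicate 1. Against wild type replicate 2 it was 0.0078 and -0.14. For the 9 progenitor genes the medians were 0.24 and 0.15 against wild type replicate 1 and 0.18 and 0.12 against wild type replicate 2. For the 5 immature genes they were -0.10 and -0.14, and then 0.088 and 0.45. The medians over all genes tested lay between -0.028 and 0.0010 in these 4 pairings. The edgeR median of the myelinating genes, 0.27 with all libraries, was -0.10 without wild type replicate 1 and 0.67 without wild type replicate 2.

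**Figure D3:**
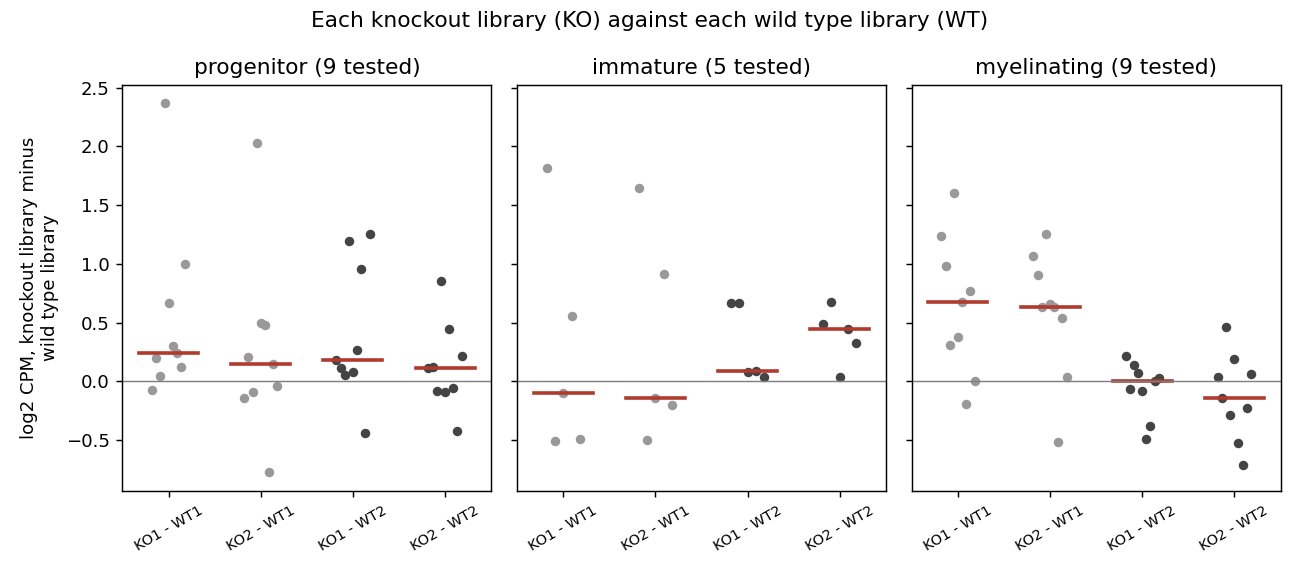
Log2 CPM of each knockout library (KO1, KO2) minus each wild type library (WT1, WT2) for the tested genes of each stage; points are genes, pale against wild type replicate 1 and dark against wild type replicate 2, and red lines are medians. The myelinating medians are 0.67 and 0.64 against wild type replicate 1 and 0.0078 and -0.14 against wild type replicate 2.

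Wild type replicate 1 was the lowest library for 14 of the 23 tested genes, that is 60.9%, where it was the lowest for 26.1% of all genes tested. By stage this held for 5 of 9 progenitor, 2 of 5 immature and 7 of 9 myelinating genes. Knockout replicate 1 was the lowest for 0 of the 23 genes, against 4047 of all 19912 genes tested. It was the highest for 9 (39.1%), against 22.1% of all genes tested. The difference between the wild type libraries was larger than the fold change between the genotypes for 14 of the 23 genes (60.9%) and for 64.0% of all genes tested. Wild type replicate 1 was also the library with Y-linked RNA and the fewest counts, and the part of either in these differences was not tested.

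**Figure D4:**
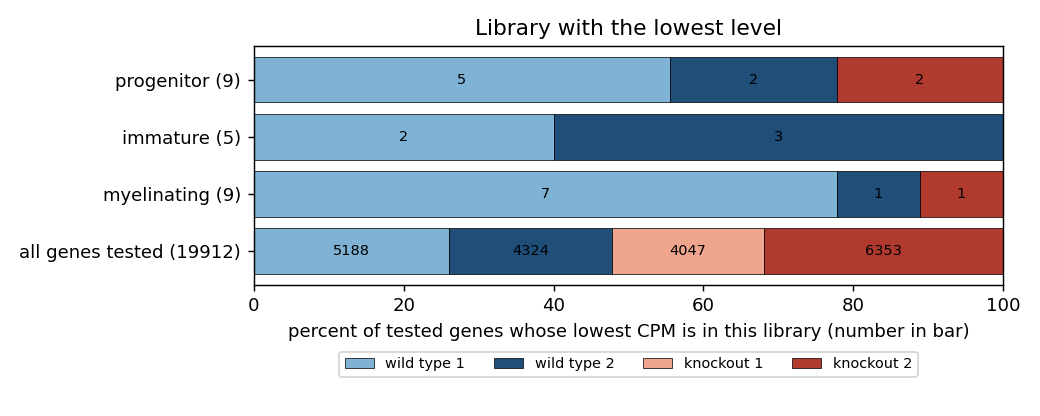
Share of tested genes whose lowest CPM is in each library, for the 3 stages and for all genes tested, with the number of genes in each bar. Wild type replicate 1 (pale blue) holds the lowest value for 7 of 9 myelinating genes and for 5188 of all 19912 genes.

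Other genes of the lineage, from lists made with earlier results known, included 0 called genes. Of 20 further progenitor genes 17 were tested, 11 positive and 6 negative (median log2 fold change 0.18). Both knockout libraries were above both wild type libraries for 6 (12.5% of all genes tested) and below for 1 (14.9%). Vcan, a matrix proteoglycan of progenitors, measured 108 and 143 CPM in the wild type and 150 and 235 CPM in the knockout (log2 fold change 0.62, SE 0.22, edgeR unadjusted p = 0.0186, adjusted p = 1). Sox4, a factor of immature neural cells, measured 446 and 452 CPM against 512 and 595 CPM (log2 fold change 0.30, SE 0.17, edgeR unadjusted p = 0.112, adjusted p = 1). Of 14 further immature genes 13 were tested, 7 positive and 6 negative, with a median of 0.04. In that list 0 genes had both knockout libraries above both wild type libraries (12.5% of all genes tested) and 1 had both below (14.9%). It was Cd9, a tetraspanin gene, with a log2 fold change of -0.14 (SE 0.14, edgeR unadjusted p = 0.333, adjusted p = 1).

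Of 36 further myelin genes 25 were tested, 11 positive and 14 negative, with a median of -0.12. Both knockout libraries were above both wild type libraries for 4 (12.5% of all genes tested) and below for 6 (14.9%). Aspa, the aspartoacylase of oligodendrocytes, had the smallest p of this list. It measured 9.64 and 17.2 CPM in the wild type and 5.64 and 3.99 CPM in the knockout, with both knockout values below both wild type values (log2 fold change -1.48, SE 0.32, edgeR unadjusted p = 0.000869, adjusted p = 1). Gjc3, a connexin of glial cells, measured 29.5 and 22.0 CPM against 37.0 and 37.9 CPM (log2 fold change 0.54, SE 0.19, edgeR adjusted p = 1).

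Regulators of the lineage outside the 30 genes had medians near that of all genes. Of 16 tested cofactors and chromatin regulators the log2 fold change was above 0 for 12 and below 0 for 4 (median 0.07). In this list 0 had groups apart in either direction (12.5% above and 14.9% below over all genes tested). The smallest p-values were those of the histone deacetylase gene Hdac1 (0.29, SE 0.20) and of Zeb2, a repressor of inhibitory signals (0.21, SE 0.18). Of 13 genes listed with the pathways that inhibit differentiation 8 had a log2 fold change above 0 and 5 below (median 0.04). Both knockout libraries were above both wild type libraries for 0 of the 13 (12.5% of all genes tested) and below for 3 (14.9%). Jag1, a Notch ligand gene, was at -0.43 (SE 0.20), and Apcdd1 at 0.79 (SE 0.39), which codes for a Wnt antagonist and so counters one of these pathways.

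Markers of other cell types are given because several of the 30 genes are not particular to oligodendrocytes. Sox10 also marks neural crest and Schwann cells, Pdgfra mesenchyme and Cspg4 pericytes. Of 12 neural crest and Schwann markers 4 were tested, with summed levels of 55.1 and 73.5 CPM in the wild type and 61.5 and 68.4 CPM in the knockout, and the crest factors Foxd3 and Tfap2b at 0 counts in all 4 libraries. Of 12 mural and mesenchymal markers 3 were tested, 0 positive and 3 negative (median log2 fold change -1.16). Both knockout libraries were above both wild type libraries for 0 (12.5% of all genes tested) and below for 3 (14.9%). An edgeR unadjusted p under 0.05 was found for 2 of them, against 551 of all 19912 genes tested. The sums of the 12 were 33.6 and 28.3 CPM in the wild type and 22.2 and 20.2 CPM in the knockout. Of 15 astrocyte markers 14 were tested, 2 positive and 12 negative, with sums of 2000 and 2231 CPM against 1978 and 1709 CPM. Both knockout libraries were above both wild type libraries for 1 (12.5% of all genes tested) and below for 9 (14.9%). The one above was Aldh1l1, a folate enzyme gene (log2 fold change 0.73, SE 0.20, edgeR unadjusted p = 0.00374, adjusted p = 1). Of 15 neuron markers 9 were tested, 3 positive and 6 negative (median -0.17), with Neurod2 and Slc17a6 at 0. Both knockout libraries lay above both wild type libraries for 1 neuron marker (12.5% of all genes tested) and below for 3 (14.9%). The sums of the 15 neuron markers were 1088 and 1376 CPM against 1195 and 1427 CPM. Most of each was Map2 (998 and 1263 against 1108 and 1332 CPM), named after its values were seen. Sums of 10 microglial markers were between 6.83 and 8.01 CPM, with Tmem119, Itgam and Trem2 at 0, and those of 8 endothelial markers between 4.70 and 5.84 CPM. The part of astrocyte and mesenchymal RNA in the differences was not tested.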

How the data were processed

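The authors deposited whole-number counts per gene, not normalised, in 1 table per library with Ensembl identifiers. The build was GRCm39 and the tools were STAR 2.7.10 and featureCounts, per the submitters' processing notes. The sources used here do not give how strand or multiply matching reads were handled. Identifiers were matched without version to symbols in a GENCODE M21 table (52081 of 55414 matched). Exons of the other strand cover 17.6% of Lhfpl3, 12.9% of Nkx6-2, 12.6% of Bcas1 and 10.6% of Sox8 in that annotation, so their counts are less certain. Exon lengths for levels per kilobase come from it too.

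Genes were filtered with filterByExpr (minimum count 10), which left 19912, and scaled by TMM. The genotypes were compared in R 4.3.3 by edgeR 4.0.16, glmQLFit with robust=TRUE, and p-values were adjusted over all genes tested (Benjamini-Hochberg, called under 0.05). Each SE was obtained by dividing the log2 fold change by the square root of F, and intervals are 95%. Single-library differences use log2 CPM with a prior count of 2. The fit was tested on simulated data. Alternatives included DESeq2 1.42.0 and limma-voom (limma 3.58.1).

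Statistics are given for genes with an unadjusted p under 0.05, the 4 smallest p per stage and the most abundant gene per stage, and for up to 2 genes of the smallest p in other lists. Genes and lists were chosen with earlier results of these data known. Floors are 3 counts and cover counting error only.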

Additional observations from a re-analysis of the deposited data

How the results depend on the processing

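The 14 genes followed singly (Mettl4 and 13 of the lineage) gave 167 values over 12 other fits, of which 159 kept direction and side of the threshold, 7 reversed and 1, Gpr17 without wild type replicate 2, passed it. The reversals were in fits without 1 library, where the log2 fold change ranged from -0.10 to 0.15 for Olig1, -0.0030 to 0.60 for Nkx2-2, -0.11 to 0.063 for Tns3, -0.34 to 0.21 for Myrf and -0.10 to 1.51 for Cldn11. The genes called over all genes were 1, but 41 without a low-count filter, 6 by DESeq2, 9 with the replicate number as a replicate block, and between 1 and 47 without 1 library (31 and 17 when wild type replicate 1 or 2 was left out, 47 when knockout replicate 1 was). Lineage genes at an unadjusted edgeR p under 0.05 were 5 with the block. There Pdgfra (edgeR adjusted p = 0.488) and Zfp488 (edgeR adjusted p = 0.6) joined Sox10, Gpr17 and Cnp. The share of all genes at that threshold was not worked out for the block fit. Lineage genes called were 0 in these fits, apart from 1 without wild type replicate 2. No label marks pairs; deviations of same-numbered libraries correlated across genes with r = 0.23. Without 1 library, medians ranged from 0.11 to 0.29 (progenitor), -0.11 to 0.28 (immature), -0.10 to 0.67 (myelinating) and 0.11 to 0.49 (all tested). The immature median was also 0.25 without a filter, with 6 genes, and 0.12 by limma-voom, and the cause of the latter was not tested. Other scalings moved the median of all genes to between -0.011 and 0.010. With 2 libraries a group, changes of the size seen for most lineage genes are within the error.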

Other observations

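Ventral forebrain markers are genes of the region where many oligodendrocyte progenitors arise. Wild type replicate 1 was the lowest library for 3 of 6 tested markers, against 26.1% of all genes tested. Of the others, 2 were lowest in wild type replicate 2 and 1 in knockout replicate 2. Of 12 listed markers, Dlx5, Dlx6 and Lhx6 were at 0 counts in all 4 libraries. Sp8, a zinc finger factor on this list, had 56 counts in wild type replicate 1 and 238 in wild type replicate 2. In the knockout Sp8 had 341 and 297 counts. Gsx2, a ventral homeodomain factor, measured 0.377 and 1.64 CPM against 2.05 and 1.20 CPM. Nkx6-2, Cldn11 and Sp8 all had their lowest value in wild type replicate 1. The comparison of these genes was made after their values were seen, and no test bears on it.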
